A study of Homo sapiens with 6 samples.

Results

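The DNAJ genes encode the J-domain co-chaperones of HSP70, and the CCT genes encode the subunits of the chaperonin CCT, also called TRiC. They were taken from the deposited expression table by symbol alone. A row was a member if its symbol was DNAJA, DNAJB or DNAJC followed by digits only, CCT2 to CCT8 without a further letter, or TCP1, the symbol of the first CCT subunit. This gave 50 of the 28395 genes in the table, of which 4 were DNAJA, 13 DNAJB, 26 DNAJC and 7 CCT genes. The sixth CCT subunit is split between CCT6A and CCT6B, which the symbol rule leaves out, and both are given further on with the related chaperone genes.

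RNA was sequenced from HCC827, an established human lung adenocarcinoma cell line whose EGFR gene carries an activating in-frame deletion, so that both groups share this mutant receptor. One group of 3 libraries received the solvent DMSO and the other group of 3 libraries received 1 μM erlotinib, a small molecule inhibitor of the EGFR kinase, each for 24 h. The methods of the study say of its cell experiments in general that they were repeated independently, but the sources used here do not say whether the 3 libraries of a group came from separate cultures, so the p-values measure the spread between these libraries, which may be technical. The libraries held 20858083, 24641819 and 21172884 reads on genes with DMSO and 21944007, 20760204 and 21678395 with erlotinib.

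Expression is given as normalised reads, the reads of a gene divided by 1 size factor per library. The size factors lay between 0.882 and 1.08, and the values were therefore close to read numbers. Differences are log2 fold changes of erlotinib against DMSO on the scale of log2(normalised reads + 1). They were tested with limma, two-sided, over the 14215 genes with a mean of at least 10 normalised reads, and a gene was called at a Benjamini-Hochberg adjusted p under 0.05. Because these were bulk samples, fewer cells that express a gene and less RNA per cell cannot be told apart.

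The labelled cell type was checked with epithelial and lung markers. EPCAM, an epithelial adhesion molecule, had 9852 ± 235 normalised reads with DMSO and 9485 ± 281 with erlotinib (mean ± SD, n = 3 in each group, as in all values below). The keratin KRT8 went from 45622 ± 3011 to 25636 ± 338, and EGFR itself from 79645 ± 2441 to 45538 ± 3759. NKX2-1, the transcription factor that marks lung epithelium, went from 3002 ± 209 to 8644 ± 408. The immune markers PTPRC, CD3E, CD14 and LYZ summed to at most 31.4 normalised reads in any library. COL1A1, a fibroblast collagen, was present at 77.7 ± 15.3 and 216 ± 27.9, while COL1A2, COL3A1 and DCN had at most 3 reads in any library. LUM had at most 20 reads, and of the endothelial genes VWF went from 3.94 ± 3.31 to 27.4 ± 6.93, PECAM1 had 15.7 ± 3.30 and 10.4 ± 2.20 and did not pass, and CDH5 had too few reads to be tested. The epithelial markers were thus abundant and those of immune, fibroblast and endothelial cells were low, and the part of the last 2 kinds in the results was not tested.

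HSP70 binds unfolded stretches of proteins and lets go of them in a cycle driven by ATP. J-domain proteins bring clients to HSP70 and stimulate its ATP hydrolysis, and nucleotide exchange factors then free the client by replacing ADP. Class A and class B members also bind clients themselves, whereas class C members share only the J domain and tie HSP70 to a place or task, such as the ribosome, the import motor of mitochondria or clathrin-coated vesicles. CCT is a double-ring chamber in the cytosol that folds actin, tubulin and other proteins with complex folds, and prefoldin hands such clients to it. Many cytosolic chaperone genes respond to heat shock factor HSF1, which binds inverted repeats of GAA in promoters, and several chaperones of the endoplasmic reticulum respond to the unfolded protein response.

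Because of this shared regulation, the promoters were read for the binding motif of HSF1. RefSeq promoter windows (GRCh38.p14), which run from 250 bases before to 50 bases after a gene's start, were found by symbol for 46 of the 50 members. The motif was searched as GAANNTTC or TTCNNGAA, in which N is any base. Each of these is its own reverse complement, so both strands were covered. A match was present in a window of 11 of the 46 members (23.9%), compared with 16.2% of all 27305 genes with a window and 13.7% of the 10640 tested genes with one. Among the members that were lower with erlotinib, 6 of 24 had a match (25%), among those that were higher, 1 of 10 did, among those that were neither, 1 of 6 did, and among those not tested, 3 of 6 did. Of the 7 CCT genes, 3 had one (42.9%), and in CCT4 it lay after the start. The longer form with 3 units, GAANNTTCNNGAA or its reverse complement TTCNNGAANNTTC, occurred in 2 of the 46 members, before the start in DNAJB6 and after it in DNAJA1, compared with 0.608% of all genes and 0.498% of the tested genes. A match is a description of the sequence and does not show that a factor binds there.

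The stretches around the matches before the start are shown for the called members, since they let a reader compare genes that moved in either direction. All are written 5′ to 3′ on the strand of the gene, with the matches in capitals.
DNAJB1: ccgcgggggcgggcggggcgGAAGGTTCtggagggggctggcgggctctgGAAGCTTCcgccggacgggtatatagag
DNAJB6: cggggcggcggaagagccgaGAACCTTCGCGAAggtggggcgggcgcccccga
DNAJA1: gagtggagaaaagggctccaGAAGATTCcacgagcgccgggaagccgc
CCT2: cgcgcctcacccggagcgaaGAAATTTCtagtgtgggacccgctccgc
TCP1: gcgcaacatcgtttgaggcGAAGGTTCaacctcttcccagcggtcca
DNAJB4: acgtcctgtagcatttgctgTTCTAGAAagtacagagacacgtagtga
The DNAJB1 stretch is chr19:14518417-14518494 on the minus strand, and its matches span positions -77 to -40 from the start. The DNAJB6 stretch is chr7:157336853-157336905 on the plus strand (-131 to -119), where the capitals are 1 match to the longer form. The DNAJA1 stretch is chr9:33025055-33025102 on the plus strand (-198 to -191). The CCT2 stretch is chr12:69585780-69585827 on the plus strand (-89 to -82), and that of TCP1 is chr6:159789806-159789852 on the minus strand (-231 to -224). These 5 genes were lower with erlotinib. DNAJB4, at chr1:78004821-78004868 on the plus strand (-98 to -91), was the single higher member with a match.

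Over all members, more genes were lower than higher with erlotinib, and the chaperonin and the co-chaperones differed in how evenly they moved. Of the 50 members, 43 had enough reads to be tested. With erlotinib, 25 of these were lower (58.1%), 11 were higher (25.6%) and 7 were neither. One of the 11, DNAJB13, reached the minimum mean only through its erlotinib libraries, and with 10 reads required in every library 25 members were lower and 10 higher. In the whole table, 35.4% of tested genes were called lower and 35.3% higher. The median log2 fold change of the tested members was -0.35, compared with 0.02 over all tested genes. Every erlotinib library lay below every DMSO library in 25 members and above in 12, against 36.9% of all tested genes below and 36.7% above. A fall of at least 1 log2 unit that also passed the test was seen in 7 members and a rise of that size in 5. Across the table, 10.8% of genes fell that far and 17.0% rose that far.

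**Figure D1:**
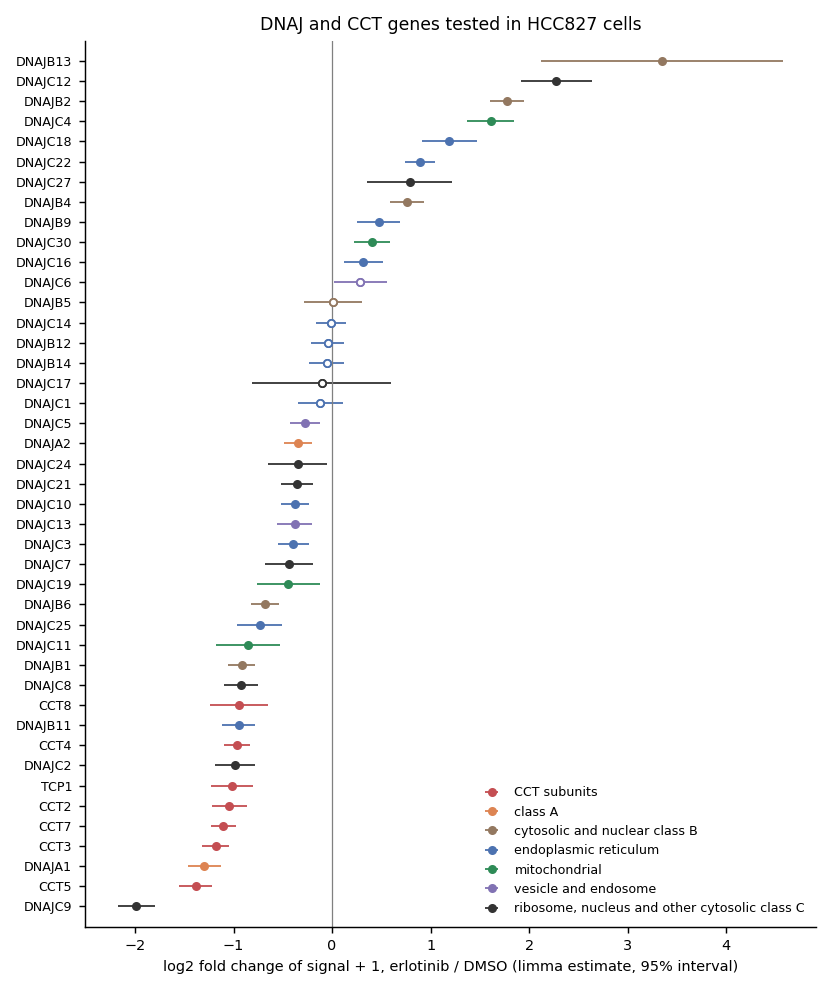
Log2 fold change of normalised reads + 1, erlotinib against DMSO, for the 43 tested members with the 95% interval from limma. Colours give the role, filled points passed the test at an adjusted p under 0.05 and hollow points did not, and all 7 CCT subunits lie between -1.38 and -0.94 while DNAJ genes spread from -1.99 to 3.35.

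The scale of the values bears on these counts. The DMSO libraries have larger sums of normalised reads than the erlotinib libraries, so scaling to the total count moves the median of all tested genes from 0.02 to 0.19. On that scale 20 members were lower and 13 higher, the members' median was -0.17, and 27.8% of all tested genes were lower and 43.3% higher. The 7 CCT genes were called lower on either scale. In CPM, reads scaled to the same total in each library, the 7 CCT subunits summed to 1440 ± 37.1 with DMSO and 754 ± 16.4 with erlotinib, which is 52.4% of the DMSO level. In normalised reads the sum was 33207 ± 925 with DMSO and 15364 ± 397 with erlotinib, 46.3% of the DMSO level. For the 43 DNAJ genes the sum of normalised reads was 51195 ± 356 with DMSO and 44179 ± 249 with erlotinib (86.3%). In CPM it was 2220 ± 34.7 and 2169 ± 18.5 (97.7%), and on this scale the groups overlapped. The summed DNAJ level thus depended on the scaling, and the summed CCT level was near 50% of its DMSO value on both.

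All 7 CCT genes were called lower, their median log2 fold change was -1.04, and in none did the groups overlap. CCT5 fell the most. It had 3289, 3932 and 3460 normalised reads in the DMSO libraries and 1262, 1348 and 1476 in the erlotinib libraries. That is 2.61-fold lower, with a log2 fold change of -1.38 (95% interval -1.55 to -1.21, limma adjusted p = 3.8e-12). CCT3 was the most abundant of the 7, at 10509, 9866 and 9658 normalised reads with DMSO and 4087, 4515 and 4650 with erlotinib. Its log2 fold change was -1.18 (-1.32 to -1.04, limma adjusted p = 2.1e-12). CCT7 varied least between libraries. It went from 8277, 7952 and 8168 normalised reads to 3758, 3819 and 3780, a log2 fold change of -1.10 (-1.23 to -0.98, limma adjusted p = 1.5e-12). The CCT5 gene lies at chr5:10249929-10266389, CCT3 at chr1:156308968-156367873 and CCT7 at chr2:73233420-73253021 (GRCh38, GENCODE 44).

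The other 4 subunits fell by close to 1 log2 unit. CCT2 (chr12:69585426-69601570) had 2442, 3132 and 2537 normalised reads with DMSO and 1314, 1351 and 1252 with erlotinib, a log2 fold change of -1.04 (-1.22 to -0.86, limma adjusted p = 1.0e-09). TCP1 (chr6:159778498-159789703) had 1004, 852 and 810.2 with DMSO and 426, 445 and 437 with erlotinib, a log2 fold change of -1.02 (-1.23 to -0.81, limma adjusted p = 1.8e-08). In both genes 1 DMSO library stood above the other 2 by more than these differed from each other. CCT4 (chr2:61868085-61888671) had 7738, 7858 and 7233 with DMSO and 3901, 3975 and 3828 with erlotinib, a log2 fold change of -0.96 (-1.10 to -0.83, limma adjusted p = 2.3e-11). CCT8 (chr21:29055805-29073797) was the least abundant, with 272, 333 and 296 normalised reads with DMSO and 157, 156 and 153 with erlotinib. It had the smallest fall, -0.94 (-1.24 to -0.65, limma adjusted p = 5.7e-06). The intervals of these 4 genes overlap one another, and their order by fold change is not resolved.

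The subunits form 1 complex, yet their normalised reads per kilobase of transcript differed widely. These values also depend on the mapping, which did not split reads at introns, so that reads on short exons can be lost. Per kilobase of transcript and with DMSO, CCT3 had 5064 ± 224 normalised reads, CCT7 4403 ± 89.4, CCT4 3203 ± 140, CCT2 1411 ± 195, CCT5 1081 ± 101, TCP1 378 ± 43.4 and CCT8 162 ± 16.6. Neighbours in this order differed by more than the sum of their SDs. With erlotinib the means kept this order, from 2234 ± 149 for CCT3 and 2050 ± 16.9 for CCT7 down to 83.8 ± 1.27 for CCT8. The gap between CCT3 and CCT7 was then close to the spread of CCT3. TCP1 and CCT8, the lowest of the 7, each have a copy of their transcript elsewhere in the genome at an identity of at least 90%, and reads that fit both places would not be counted as unique. CCT6A, described further on, also has 1 such copy and had more normalised reads per kilobase than any of the 7. What copies and short exons did to these levels was not tested.

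**Figure D2:**
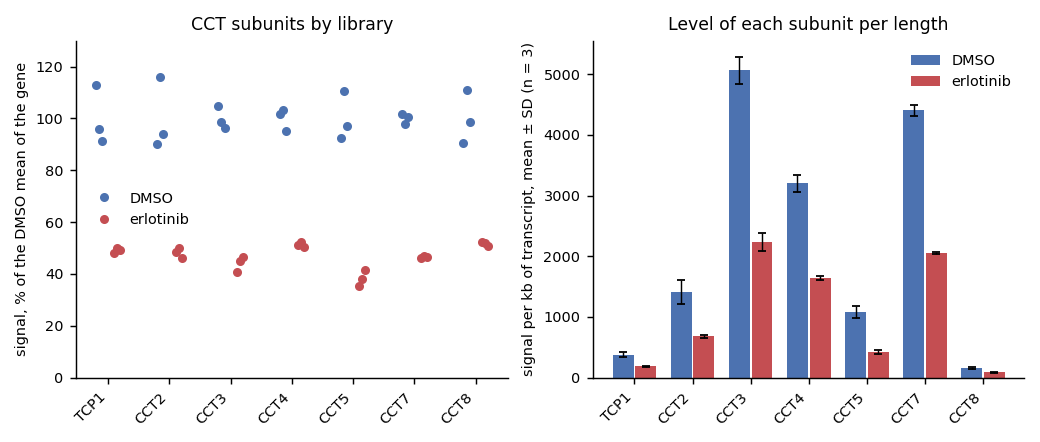
Left, normalised reads of each CCT gene in each library as a percentage of the gene's mean in DMSO. Right, normalised reads per kilobase of transcript (bars, mean of 3 libraries; error bars, SD), with every erlotinib library below every DMSO library in all 7 genes and CCT3, CCT7 and CCT4 the highest per kilobase.

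The DNAJ genes moved in both directions. Of the 43, 36 were tested, and 18 of these fell (50%), 11 rose (30.6%) and 7 did not pass. Their median log2 fold change was -0.20. With total count scaling 13 were lower and 13 higher, and the median was -0.02. On that scale 27.8% of all tested genes were lower and 43.3% higher, around a median of 0.19. The shares in normalised reads lie nearer to those of the whole table than the shares of the CCT genes do. The class A members that could be tested were both lower. DNAJA1, the main cytosolic class A co-chaperone, had 2340, 2721 and 2548 normalised reads with DMSO and 982, 1100 and 1007 with erlotinib. It was 2.46-fold lower, with a log2 fold change of -1.30 (-1.47 to -1.13, limma adjusted p = 8.8e-12) and no overlap. Its close relative DNAJA2 went from 3936 ± 241 to 3096 ± 36.5, a log2 fold change of -0.34 (limma adjusted p = 1.3e-04).

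Among the 6 tested cytosolic and nuclear class B members 2 were lower, 3 were higher and 1 was neither, close to the shares of all tested genes for so few members. DNAJB1, the co-chaperone known as HSP40, had 5480, 4911 and 5561 normalised reads with DMSO and 2775, 2820 and 2830 with erlotinib. Its log2 fold change was -0.92 (-1.06 to -0.78, limma adjusted p = 1.4e-10). DNAJB6, which keeps aggregation-prone proteins from clumping, had 3981, 3836 and 4004 with DMSO and 2486, 2348 and 2538 with erlotinib, a log2 fold change of -0.68 (-0.82 to -0.54, limma adjusted p = 1.2e-08). In both genes all erlotinib libraries lay well below the DMSO libraries.

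DNAJB2, which carries ubiquitin-interacting motifs and is known from neurons, moved the other way. It had 1343, 1062 and 1279 normalised reads with DMSO and 4058, 4328 and 4149.6 with erlotinib. It was 3.42-fold higher, with a log2 fold change of 1.77 (SE 0.083, limma adjusted p = 9.2e-14). With erlotinib its level per kilobase, 1360.3, was above that of DNAJB1, 1253, while with DMSO it was 399.8 against 2372 for DNAJB1. The DNAJB1 transcript has a copy at 1 other place in the genome, and what this did to the comparison was not tested. DNAJB4, a relative of DNAJB1, had 1038, 1113 and 946 normalised reads with DMSO and 1759, 1722 and 1759.8 with erlotinib, a log2 fold change of 0.76 (0.59 to 0.93, limma adjusted p = 4.2e-08). DNAJB5, also a relative of DNAJB1, had 223 ± 22.3 and 224 ± 8.17, a log2 fold change of 0.0089 (-0.29 to 0.30), and did not pass.

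DNAJB13, a J-domain protein of the sperm flagellum and of motile cilia, had the largest log2 fold change of the members. It had 6.81, 0.929 and 17.1 normalised reads in the DMSO libraries and 79.4, 55.4 and 62.7 in the erlotinib libraries. The groups did not overlap, but the DMSO libraries held few reads and differed widely among themselves, and with a DMSO mean of 8.29 the gene entered the test only through the erlotinib libraries, so its call is not independent of the filter. The log2 fold change was 3.35 (2.12 to 4.58, limma adjusted p = 3.6e-05), and it was 2.14 with a pseudocount of 10 and 3.72 with a pseudocount of 0.1. It also rested on single DMSO libraries, at 2.47 without DMSO library 2 and 4.09 without DMSO library 3, and was called in each of these fits. Markers of ciliated cells moved with it. Of 12 such markers 8 were tested, of which 7 were higher (87.5%) and 1 was lower (12.5%), beside 35.3% and 35.4% of all tested genes. Of these 7, FOXJ1 and DNAI1 also passed the filter only through erlotinib. The whole list summed to 271, 337 and 322 normalised reads with DMSO and 620.1, 632 and 662 with erlotinib. The most abundant of them, CFAP157, was the lower one, at 149 ± 20.8 and 103 ± 1.63. FOXJ1, the transcription factor of motile cilia, had 2.27, 1.86 and 0 normalised reads with DMSO and 159, 145 and 142 with erlotinib, while the axonemal dynein gene DNAI2 was at 0 in all libraries. The part of these genes in the DNAJB13 result was not tested.

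Of the 12 members grouped under the endoplasmic reticulum 4 were lower, 4 were higher and 4 were neither, shares of 33.3% in each direction that lie near the 35.4% and 35.3% of all tested genes. DNAJB11, a co-chaperone of BiP in the lumen, fell the most, from 1479, 1617 and 1592 normalised reads to 832, 811 and 783. Its log2 fold change was -0.95 (-1.12 to -0.78, limma adjusted p = 1.5e-09). DNAJC25, grouped here by its predicted membrane location, had 541, 624 and 607 with DMSO and 339.6, 371 and 351 with erlotinib, a log2 fold change of -0.74 (-0.96 to -0.51, limma adjusted p = 4.0e-06). DNAJC3, which also restrains the kinase PERK, had a log2 fold change of -0.40 (limma adjusted p = 8.9e-05), and DNAJC10, a disulfide reductase that prepares proteins for degradation, -0.38 (limma adjusted p = 6.5e-05). In these 4 genes the groups did not overlap.

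Rises in the endoplasmic reticulum group were led by membrane proteins. DNAJC18 had 205, 163 and 191 normalised reads with DMSO and 411, 414 and 448 with erlotinib, a log2 fold change of 1.19 (0.91 to 1.47, limma adjusted p = 8.3e-08). DNAJC22, grouped here as a protein that spans the membrane several times, had 1606, 1518 and 1432 with DMSO and 2786, 2774 and 2916 with erlotinib. Its log2 fold change was 0.90 (0.74 to 1.05, limma adjusted p = 6.4e-10). Within each of these genes the libraries of a group were close together and the groups far apart. DNAJB9, a luminal co-chaperone induced by the unfolded protein response, had 434, 496 and 434.5 with DMSO and 637, 671 and 585 with erlotinib, a log2 fold change of 0.47 (0.25 to 0.69, limma adjusted p = 4.6e-04). DNAJC16 had 625, 724 and 643 with DMSO and 846, 768 and 868 with erlotinib, a log2 fold change of 0.32 (0.12 to 0.52, limma adjusted p = 0.0058). DNAJB12 and DNAJB14, which help to send membrane proteins to degradation, did not pass, with log2 fold changes of -0.04 (-0.21 to 0.12) and -0.05 (-0.23 to 0.12). Neither did DNAJC1 at -0.12 (-0.35 to 0.11) nor DNAJC14 at -0.01 (-0.16 to 0.14).

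Of the 4 tested mitochondrial members, 2 were lower and 2 higher, beside 35.4% lower and 35.3% higher among all tested genes. Shares of so few members cannot be set apart from those of the whole table. DNAJC11, which belongs to the contact sites of the inner and outer membrane, had 288, 279.5 and 264 normalised reads with DMSO and 125, 170.3 and 168 with erlotinib, a log2 fold change of -0.85 (-1.18 to -0.53, limma adjusted p = 5.5e-05). DNAJC19, a part of the inner membrane that adjoins the protein import motor, had 255, 312 and 286 with DMSO and 229.8, 233 and 168 with erlotinib, a log2 fold change of -0.44 (-0.76 to -0.13, limma adjusted p = 0.013). The last of these libraries decided that call: without erlotinib library 6, as the columns number them, the log2 fold change was -0.29 (limma adjusted p = 0.112). The call was also lost with total count scaling (-0.265, limma adjusted p = 0.134). DNAJC4 was 3.05-fold higher, with 247, 229 and 286 normalised reads with DMSO and 729, 770.2 and 825 with erlotinib. Its log2 fold change was 1.61 (1.37 to 1.85, limma adjusted p = 8.3e-11). DNAJC30, which acts on the respiratory chain, had 886, 909 and 986 with DMSO and 1279.9, 1104 and 1308 with erlotinib, a log2 fold change of 0.41 (0.22 to 0.59, limma adjusted p = 3.9e-04).

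Vesicle and endosome members changed little. DNAJC5, the cysteine string protein of secretory vesicles, had a log2 fold change of -0.27 (-0.42 to -0.12, limma adjusted p = 0.0022), and DNAJC13, which shapes endosomes, -0.38 (-0.56 to -0.20, limma adjusted p = 5.4e-04). Neither passed the test when libraries were scaled to the total count, with adjusted p = 0.242 for DNAJC5 and 0.0501 for DNAJC13. DNAJC6, auxilin, which removes the clathrin coat, had 252, 260.0 and 227 normalised reads with DMSO and 303, 288 and 308 with erlotinib. Its groups did not overlap, but it did not pass, with a log2 fold change of 0.28 (0.015 to 0.55, limma adjusted p = 0.056), whereas it was called higher with total count scaling (adjusted p = 0.0035).

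**Figure D3:**
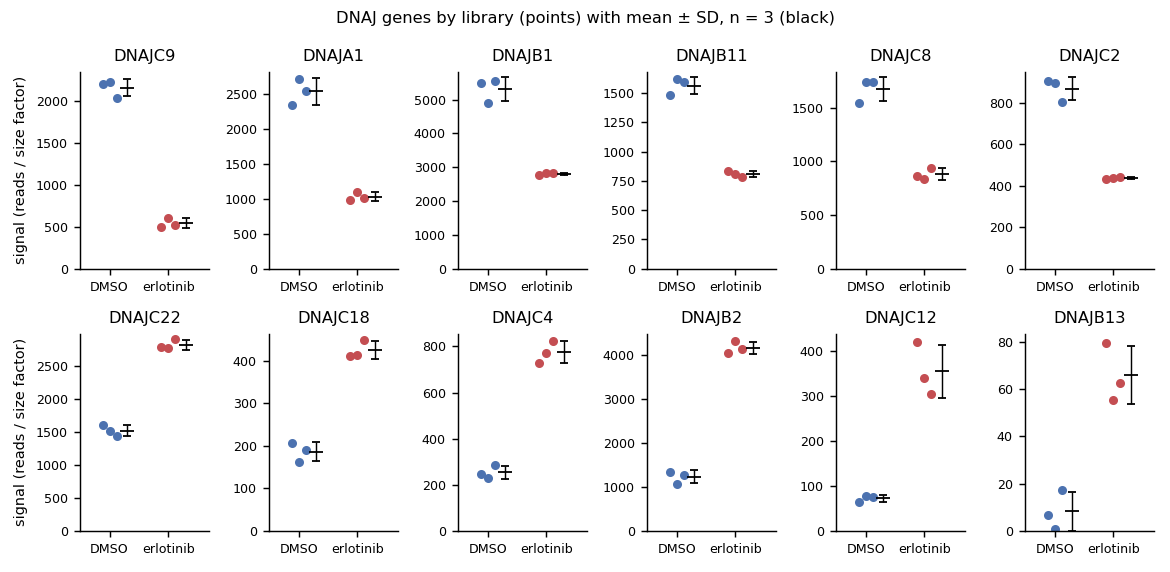
Normalised reads of 12 DNAJ genes in each library (points, axes from 0) with the mean and SD of 3 libraries in black. The upper row shows genes with large falls and the lower row genes with large rises, and in none of the 12 do the DMSO and erlotinib libraries overlap.

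The remaining class C members act at the ribosome, in the nucleus or elsewhere in the cytosol. Of these 9, 6 fell (66.7%), 2 rose (22.2%) and 1 did not pass. Among all tested genes 35.4% were lower and 35.3% higher, and the difference from these shares was not tested. DNAJC9, a chaperone of newly made histones H3 and H4, fell more than any other member. It had 2196, 2231 and 2040.0 normalised reads with DMSO and 500.2, 608 and 527 with erlotinib. It was 3.96-fold lower, with a log2 fold change of -1.99 (-2.17 to -1.80, limma adjusted p = 5.4e-14). DNAJC2, which rides on the ribosome and meets nascent chains, had 904, 894 and 804 with DMSO and 433, 437 and 439.9 with erlotinib, a log2 fold change of -0.99 (-1.19 to -0.79, limma adjusted p = 1.2e-08). DNAJC8, which is found with splicing factors, had 1545, 1738 and 1739 with DMSO and 865, 839 and 942 with erlotinib, a log2 fold change of -0.92 (-1.10 to -0.75, limma adjusted p = 3.9e-09). In all 3 genes every erlotinib library lay below every DMSO library.

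Smaller falls in the same group were those of DNAJC7, which links HSP70 to HSP90, at -0.44 (limma adjusted p = 0.0020), and of DNAJC21, a factor in the making of the large ribosomal subunit, at -0.35 (limma adjusted p = 3.9e-04), a call lost with total count scaling (-0.17, adjusted p = 0.057). DNAJC24, which serves the synthesis of diphthamide, was the least certain call, at -0.35 (-0.65 to -0.05, limma adjusted p = 0.037). It was lost without DMSO library 1 or 2 or without any 1 of the erlotinib libraries, with adjusted p of 0.0527 to 0.140, with total count scaling (adjusted p = 0.294) and with no filter (adjusted p = 0.056). DNAJC17, a nuclear member with few reads, had 33.1 ± 5.69 and 30.9 ± 6.25 and did not pass. DNAJC12, which assists the hydroxylases of aromatic amino acids, was 4.84-fold higher, with 63.5, 78.0 and 74.9 normalised reads with DMSO and 421, 341 and 304 with erlotinib. Its log2 fold change was 2.28 (1.92 to 2.63, limma adjusted p = 2.1e-10). DNAJC27, a small GTPase of the RAB type fused to a J domain, had 82.8, 158 and 128 with DMSO and 198, 182 and 242 with erlotinib, a log2 fold change of 0.79 (0.36 to 1.22, limma adjusted p = 0.0019). Its antisense gene DNAJC27-AS1 had 25.0, 20.4 and 22.5 with DMSO and 114, 125 and 100.2 with erlotinib.

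Several members share exon bases with a neighbour, and the strand that was counted is not given in the sources used here, so reads from such bases cannot be assigned to 1 of the 2 genes. For DNAJC9 the shared part was 56.5% of its exon bases, with FAM149B1, which had 132 ± 42.0 normalised reads with DMSO and 242 ± 44.3 with erlotinib and so moved the other way. DNAJC2 shared 20.9% with PMPCB, whose log2 fold change was 0.37, and DNAJC4 shared 10.6% with NUDT22, at 0.32. TCP1 shared 12.4% with ACAT2, which fell as well, at -2.04. DNAJC14 shared 34.9% with ORMDL2, at -0.41, and TMEM198B, at 1.84. DNAJC17 shared 27.9% with 3 genes, DNAJC25 13.8% with a readthrough gene listed at 0, and DNAJC11 11.7% with THAP3, at -0.15. DNAJA1 and DNAJB1 each have a copy of their transcript at 1 other place in the genome. What these overlaps and copies did to the values was not tested.

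The 7 members outside the test had too few reads. DNAJA3, the mitochondrial class A member, and DNAJC28 were listed at 0 in all 6 libraries. Each of these has a copy of its transcript on an alternate contig of GRCh38, where a read would fit 2 places. DNAJA4, a class A member with a pair of matches to the HSF1 motif before its start, had 5.67, 6.50 and 13.9 normalised reads with DMSO and 3.69, 0 and 0.936 with erlotinib. Its groups did not overlap, but its mean was under the minimum for a test. DNAJB7 had at most 4 reads in any library, DNAJC15, which sits in the inner mitochondrial membrane, at most 4, DNAJB3 at most 2 and DNAJB8 at most 1. None of these 7 genes was tested for a difference.

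The partners of the DNAJ and CCT proteins were described with 80 genes in 8 lists. Of 73 tested, 50 fell, 7 rose and 16 did not pass, and their median log2 fold change was -0.64. These are 68.5% lower and 9.59% higher, beside 35.4% and 35.3% of all tested genes. With total count scaling 45 fell and 13 rose, around a median of -0.46, where 27.8% of all tested genes fell and 43.3% rose. CCT6A, the CCT subunit outside the symbol rule, fell with the others, from 21831, 24231 and 21739 normalised reads to 8784, 9209.7 and 8694. Its log2 fold change was -1.34 (-1.48 to -1.21, limma adjusted p = 1.4e-13), and per kilobase its level was 8746 ± 547 with DMSO and 3443 ± 107 with erlotinib. Its testis-enriched relative CCT6B had 9.08, 6.50 and 5.35 with DMSO and 19.4, 17.8 and 16.8 with erlotinib. With a DMSO mean of 6.98 it too passed the filter only through erlotinib, and with 10 reads required in every library it was not tested. CCT6B was called higher at 1.28 (0.16 to 2.40, limma adjusted p = 0.040). That call was lost without DMSO library 2 or 3 or without any 1 of the erlotinib libraries (limma adjusted p of 0.0524 to 0.109). It was also lost with a pseudocount of 0.1 (limma adjusted p = 0.054). Over the alternatives that tested CCT6B, its log2 fold change ran from 0.73 to 1.46.

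Among the HSP70 and HSP110 genes, 8 of 11 tested were lower (72.7%) and 1 was higher (9.09%), beside 35.4% and 35.3% of all tested genes. HSPA8, the constitutive cytosolic HSP70, went from 32932 ± 129 to 13359 ± 435, a log2 fold change of -1.30 (limma adjusted p = 8.7e-14), and its transcript has 6 copies elsewhere in the genome at an identity of at least 90%. HSPH1, an HSP110 that exchanges nucleotides on HSP70, had the largest fall of this list, from 6044 ± 151 to 1629 ± 129, at -1.89 (limma adjusted p = 3.4e-15). The heat-inducible HSPA1A was listed at 0 in all libraries and HSPA1B had 1 read in all 6 libraries together, and each has 4 copies on alternate contigs. HSPA6, also heat-inducible, was called higher at 1.69 (limma adjusted p = 0.033), but its groups overlapped, with 45.4, 9.29 and 2.14 with DMSO and 60.0, 17.8 and 43.1 with erlotinib. Its call was lost without DMSO library 2 or 3 or without erlotinib library 4 or 6 (adjusted p of 0.0563 to 0.268), and the log2 fold change was 0.76 without DMSO library 3 and 2.70 without DMSO library 1. It was also lost with no filter (adjusted p = 0.064), with edgeR (0.099) and with DESeq2 (0.39).

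Of 9 nucleotide exchange factors 6 were lower (66.7%) and 1 was higher (11.1%), beside 35.4% and 35.3% of all tested genes. GRPEL1, which serves mitochondrial HSP70, fell the most of these, at -1.65 (limma adjusted p = 2.4e-14), and BAG1 was the one that rose, at 0.37 (limma adjusted p = 3.5e-04). BAG3, a stress-induced exchange factor of the cytosol, had 2908, 2363 and 2719 with DMSO and 2798, 2798 and 2723 with erlotinib and did not pass, at 0.06 (-0.10 to 0.22), though it was called higher with total count scaling (adjusted p = 0.0071). Of the 13 genes of HSP90 and its co-chaperones 11 were lower (84.6%), and UNC45A and ST13, at 0.12 and -0.02, did not pass. HSP90AA1, the stress-inducible cytosolic HSP90, had the largest fall in all 8 lists, from 61879 ± 4454 to 14108 ± 12.2, at -2.13 (limma adjusted p = 1.7e-16). HSP90AB1, its constitutive counterpart, went from 9652 ± 312 to 4840 ± 161, at -0.996 (limma adjusted p = 1.0e-11). The transcripts of HSP90AA1 and HSP90AB1 each have 2 copies elsewhere in the genome at an identity of at least 90%.

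The mitochondrial chaperonin genes HSPD1 and HSPE1, which share a promoter region, were both lower, at -2.05 (limma adjusted p = 1.7e-15) and -1.98 (limma adjusted p = 1.5e-07). HSPE1 shares 17.9% of its exon bases with HSPD1 and a readthrough gene, and at an identity of at least 90% the HSPD1 transcript has 6 copies elsewhere and the HSPE1 transcript 2. In the same list of 4 tested genes the small heat shock protein gene HSPB8 rose, at 0.57 (limma adjusted p = 5.2e-05). Of 10 tested prefoldin subunits and CCT assistants, CCT6A and CCT6B included, 7 were lower (70%) and 1, CCT6B, was higher (10%). Of the 20 genes for chaperones of the endoplasmic reticulum and for the unfolded protein response 13 were lower (65%) and 2 were higher (10%). Their median was -0.52. Among all tested genes 35.4% were lower and 35.3% higher. HSPA5, which encodes BiP, went from 26237 ± 715 to 14518 ± 714, at -0.85 (limma adjusted p = 1.4e-10). The largest fall of that list was SDF2L1, at -1.60 (limma adjusted p = 5.5e-10), and the largest rise was ATF6, a sensor of the unfolded protein response, at 0.80 (limma adjusted p = 2.2e-08).

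Of the 3 heat shock factors 1 was lower and 1 higher, too few to set against the 35.4% and 35.3% of all tested genes. HSF1 was lower, at -0.43 (limma adjusted p = 5.9e-04). HSF4 was higher, from 461 ± 61.9 to 1379 ± 110.4, at 1.59 (limma adjusted p = 2.3e-11). HSF2 did not pass, at -0.35 (limma adjusted p = 0.054), though its groups did not overlap. Of the 4 tested J-domain genes outside the symbol rule 2 were lower, beside 35.4% of all tested genes, and the other 2 did not pass. The CCT genes and the HSP70 and HSP90 lists therefore had medians between -1.18 and -0.996, against -0.20 for the DNAJ genes. With total count scaling the medians were -0.86 for the CCT genes and -0.02 for the DNAJ genes. These medians are descriptions, and the difference between the lists was not tested.

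**Figure D4:**
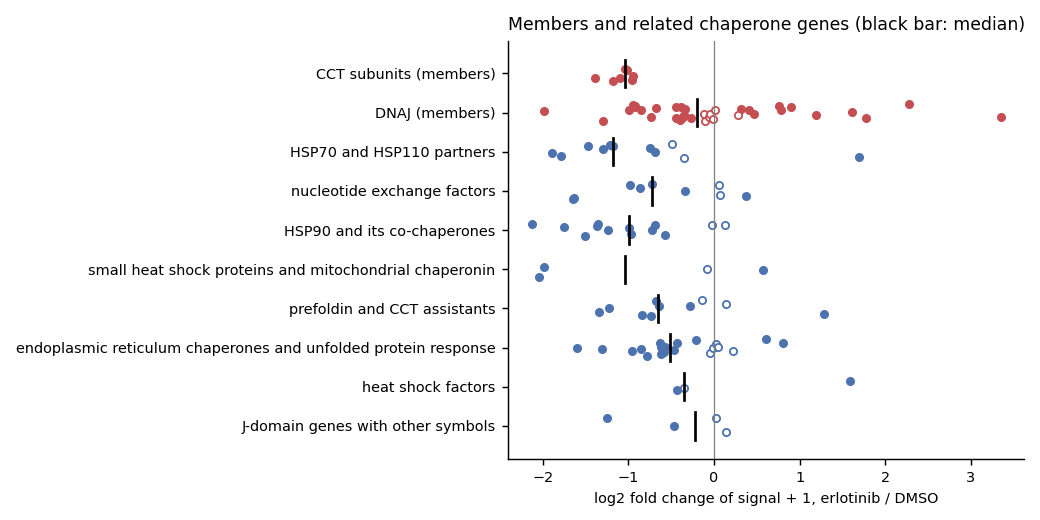
Log2 fold change of normalised reads + 1, erlotinib against DMSO, for each tested gene of the CCT and DNAJ members (red) and of 8 related lists (blue). Filled points passed the test, hollow points did not, and black bars mark medians, which run from -1.18 for HSP70 and HSP110 partners to -0.20 for the DNAJ genes.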

How the data were processed

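RNA-seq libraries of oligo(dT)-selected RNA were mapped to GRCh38 with Bowtie2 2.3.4 and reads per gene counted with featureCounts 1.6.3, with DESeq2 1.18.1 also named in the submitters' processing notes. The deposited table holds signal, which is the reads of each gene divided by 1 size factor per library, and it is called normalised reads in the text. For 100% of the values the division could be undone to whole reads (tolerance 0.001). The strand setting is not given in the sources used here. Bowtie2 does not split reads at introns, and reads on short exons can be lost.

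The signal as deposited by the authors was tested with limma 3.58.1 (R 4.3.3), with a variance trend on log2(signal + 1), for the 14215 genes whose mean signal reached 10. All 6 libraries were used, 3 per group, and 0 columns were left out. Replicates differed by more than sampling noise (chi-square over its degrees of freedom 4.05 to 22.9). The moderated test had 20.1 degrees of freedom, most of which were borrowed from the variances of all tested genes rather than given by the 6 libraries. Tested on simulated data with 14215 genes, limma recovered 188 of 200 changed genes, and 2.59% of 193 calls were false. The changed genes of that simulation moved by at least 1 log2 unit and were drawn above a minimum DMSO level. In the data 35.4% of tested genes were called lower and 35.3% higher, many by less than that. The simulated rates therefore do not describe smaller changes or so many changed genes.

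The members and lists were chosen with earlier results of these data known. Full values are given for every CCT gene and for the 10 DNAJ genes that rose most and the 10 that fell most among those past the threshold. Named from the related lists are HSPA1A, HSPA1B, HSPA8, HSPA5, HSPH1, HSP90AA1, HSP90AB1, HSPD1, HSPE1, BAG3, HSF1, CCT6A and each list's largest rise and fall, of which 1 gene is not reported here. Values of the other members, of overlapping neighbours and of UNC45A, ST13 and HSF2 fall outside this rule and were chosen after they were seen. Lengths, positions and overlaps came from GENCODE 44, with a neighbour taken into account from 10% of exon bases. Copies were found with minimap2 2.31-r1302 where 90% or more of a transcript aligned, with a minimum identity of 97% on alternate contigs and 90% elsewhere. Promoter windows came from RefSeq (GRCh38.p14).

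Alternatives were total count scaling, TMM factors in limma, limma-voom, edgeR 4.0.16 and DESeq2 1.42.0 on the recovered reads, pseudocounts of 0.1 and 10, no filter, 10 reads in every library, an adjusted p under 0.01 and each library left out in turn. edgeR called 4941 genes lower and 5085 higher. Python 3.11.15 and matplotlib 3.10.9 were used for the figures.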

Additional observations from a re-analysis of the deposited data

How the results depend on the processing

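Of the 36 called members, 31 kept their call under each of the 16 alternatives that tested them, and 1 of these, DNAJB13, had no test where 10 reads were required in each library. Total count scaling had the largest effect: the median of the members was -0.17, 13 related genes were higher, and the calls of DNAJC19, DNAJC24, DNAJC13, DNAJC21 and DNAJC5 were lost. On that scale the log2 fold changes of members that had not passed changed sign, to 0.060 for DNAJC1, 0.067 for DNAJC17, 0.12 for DNAJB14 and 0.14 for DNAJB12, and DNAJC14 was then called higher, at 0.17 (limma adjusted p = 0.044). DNAJC14 was also above 0 with TMM factors in limma (0.0060), edgeR (0.0068) and limma-voom (0.0048). DNAJC6 was called higher with total count scaling, TMM factors in limma, edgeR and limma-voom, and without DMSO library 2. The causes were not tested.

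With each library left out in turn, 23 to 25 members were lower and 11 to 12 higher, the median of the members was -0.40 to -0.33, and the CCT genes stayed at 7 lower and 0 higher. Related genes numbered 48 to 51 lower and 5 to 8 higher. Log2 fold changes that changed sign ran from -0.22 to 0.064 for DNAJC17, -0.095 to 0.0044 for DNAJB14, -0.049 to 0.017 for DNAJC14, -0.055 to 0.085 for DNAJB5 and -0.020 to 0.13 for BAG3. No paired analysis was possible because the erlotinib columns are numbered 4 to 6 while the sample titles number both groups 1 to 3, so these columns could not be tied to a numbered sample. Few reads limit DNAJB13, of which the DMSO libraries held at most 16.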
